A study of Mus musculus with 8 samples.

Results

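The genes described here are 30 erythroid genes: the adult globins, the red cell membrane proteins, the transcription factors that drive red cell formation, the receptors and iron carriers that support it, and 4 red cell enzymes. Members were the probe sets that the array annotation of 2016 assigns to at least 1 of these genes, with probe sets shared by several globin genes kept. This gave 55 probe sets for 29 of the 30 genes, out of 45101 probe sets in all. Ahsp, which encodes the chaperone of free alpha globin, had no probe set under that symbol and was not analysed here. Each probe set was read separately.

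Expression was measured in multipotent progenitors from bone marrow of female C57BL6 mice aged 8 to 10 weeks. The cells were lineage negative, Sca-1, c-Kit and CD48 positive and CD150 negative. Mice were wild type or FLT3-ITD, a form of the cytokine receptor FLT3 with part of its sequence repeated in tandem. The labels do not give the number of mutant alleles, how the duplication was introduced or whether mice were pooled. Each genotype had 4 arrays, called replicates 1, 2, 3 and 037 after their titles. Replicate 037 is titled as a second number 1, so it may repeat replicate 1. The labels leave unsaid whether replicates are separate animals, and p-values here reflect the spread among these arrays, which may be technical.

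Red cells arise from multipotent progenitors through megakaryocyte-erythroid progenitors. GATA1, with its partner FOG1, and KLF1 switch on the globin genes, the membrane genes and heme synthesis, and erythropoietin keeps the maturing cells alive. Adult haemoglobin pairs alpha globin with beta globin chains. In mice the alpha chains come from the near-identical genes Hba-a1 and Hba-a2, and in C57BL strains the adult beta chains come from the genes named Hbb-bs and Hbb-bt. The gate used here selects progenitors that have not taken on a mature lineage.

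The promoters of the globin genes and of Hemgn are shown because their transcripts were the members that differed between genotypes and had a promoter entry. Sequences are the 250 bases before the annotated start, from RefSeq on build GRCm38.p6, written 5′ to 3′ on the gene's strand. Hbb-bs lies at chr7:103827929-103828178 and Hbb-bt at chr7:103813924-103814173, both on the minus strand. Hba-a1 lies at chr11:32283422-32283671 on the plus strand and Hemgn at chr4:46404184-46404433 on the minus strand. Capitals mark 4 motifs: GATAA on either strand, the core of sites for GATA factors; CACCC on either strand, the core of sites for KLF1; CCAAT on either strand, bound by CCAAT-box factors; and ATATAA on the sense strand, a TATA box.
Hbb-bs: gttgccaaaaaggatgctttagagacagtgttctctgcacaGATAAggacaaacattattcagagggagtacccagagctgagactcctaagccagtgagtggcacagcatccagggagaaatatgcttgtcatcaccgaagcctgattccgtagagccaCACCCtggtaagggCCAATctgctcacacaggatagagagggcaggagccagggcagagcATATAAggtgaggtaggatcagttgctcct
Hbb-bt: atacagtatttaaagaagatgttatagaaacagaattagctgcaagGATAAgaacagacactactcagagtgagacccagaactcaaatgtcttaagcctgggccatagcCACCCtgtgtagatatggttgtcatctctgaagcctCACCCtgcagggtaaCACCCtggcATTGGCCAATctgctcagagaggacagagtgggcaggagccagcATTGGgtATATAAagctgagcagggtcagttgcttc
Hba-a1: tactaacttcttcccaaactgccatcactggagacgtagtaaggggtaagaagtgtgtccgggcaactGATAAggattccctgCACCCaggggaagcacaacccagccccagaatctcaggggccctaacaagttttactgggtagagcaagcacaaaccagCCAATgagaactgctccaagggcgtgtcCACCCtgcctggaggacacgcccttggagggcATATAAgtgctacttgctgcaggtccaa
Hemgn: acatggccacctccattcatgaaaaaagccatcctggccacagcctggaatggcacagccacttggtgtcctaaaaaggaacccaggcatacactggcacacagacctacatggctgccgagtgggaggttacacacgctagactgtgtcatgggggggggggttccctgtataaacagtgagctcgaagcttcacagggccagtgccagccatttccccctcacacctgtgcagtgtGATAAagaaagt

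All 3 globin promoters shown held each of the 4 motifs. In each of them ATATAA ended 23 to 25 bases before the start. In Hbb-bs a CACCC began 90 bases before the start, a CCAAT 76 and a GATAA 209. The window of Hba-a2 was identical to that of Hba-a1 over the 247 bases they share, so it is not shown. Hbb-bs and Hbb-bt were 77.4% identical over 239 aligned bases, gaps not counted. By the same measure Hbb-bs and Hba-a1 were 76.7% identical over 176, with 135 identical bases against 185 for Hbb-bs and Hbb-bt. No unrelated pair was aligned, so what this measure gives for unlike windows was not tested. The Hemgn window held a single marked motif, a GATAA that began 12 bases before the start. No marked motif overlapped another. Over 32851 promoter windows of the same length, GATAA was found in 22.6%, CACCC in 52.0%, CCAAT in 33.8% and ATATAA in 5.57%, and the last 3 together in 0.828%. Promoter entries were found for 20 member genes besides Hbb-bs and Hbb-bt, in 24 windows. GATAA was found in 14 of the 24, CACCC in 21, CCAAT in 12 and ATATAA in 4, the 4 being the globin genes. The promoters of Klf1, Gfi1b, Ermap, Trim10 and Rhag held all of these motifs other than ATATAA. These matches describe letters in a window and not binding.

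Values are log2 expression, and differences are FLT3-ITD minus wild type. The limma linear model was fitted to 22935 probe sets, those above the array median on at least 4 of the 8 arrays, and called at a Benjamini-Hochberg adjusted p of 0.05. Adjusted p-values below are limma's over all of these probe sets. Of the 55 member probe sets, 31 were tested, 21 were too dim and 3 were array controls. The dim ones covered all probe sets of 9 genes: Gata1, Trim10, Epor, Epb42, Rhag, Icam4, Kel, Cldn13 and Mfsd2b.

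Of the 6 tested globin probe sets 5 were lower in FLT3-ITD, as were 2 of Slc4a1 and the 1 of Hemgn, whereas no difference was called for the measured erythroid transcription factors, receptors or iron genes. Of the 31 tested member probe sets, 8 were lower and 0 higher. These 8 carried the names of 6 of the 20 genes with a tested probe set. Several were annotated to the same or near-identical genes, so the 8 are not independent. Over all tested probe sets, 0.131% were called lower, 0.266% higher and 0.397% in either direction. The filter admits probe sets that are bright in 1 genotype alone. Both Slc4a1 probe sets and 1 alpha globin probe set passed it through the wild type arrays only. Without the filter, 5 of the 52 member probe sets that are not controls were lower, all globins, and 0 were higher, against 0.0289% and 0.111% of all probe sets. At an unadjusted p under 0.05 in that limma fit, 10 were lower and 2 higher, against 3.80% and 4.10% of all probe sets. Over the 52 the median difference was −0.13, with 40 negative, beside 0.01 and 21377 of 45037 over all probe sets. With wild type replicate 1 or 2 left out, the count was 5 and not 8. It was 3 with wild type replicate 3 left out, and 4 with either wild type replicate 037 or FLT3-ITD replicate 2 left out. Fewer cells holding a transcript and less of it per cell cannot be told apart in such bulk samples.

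**Figure D1:**
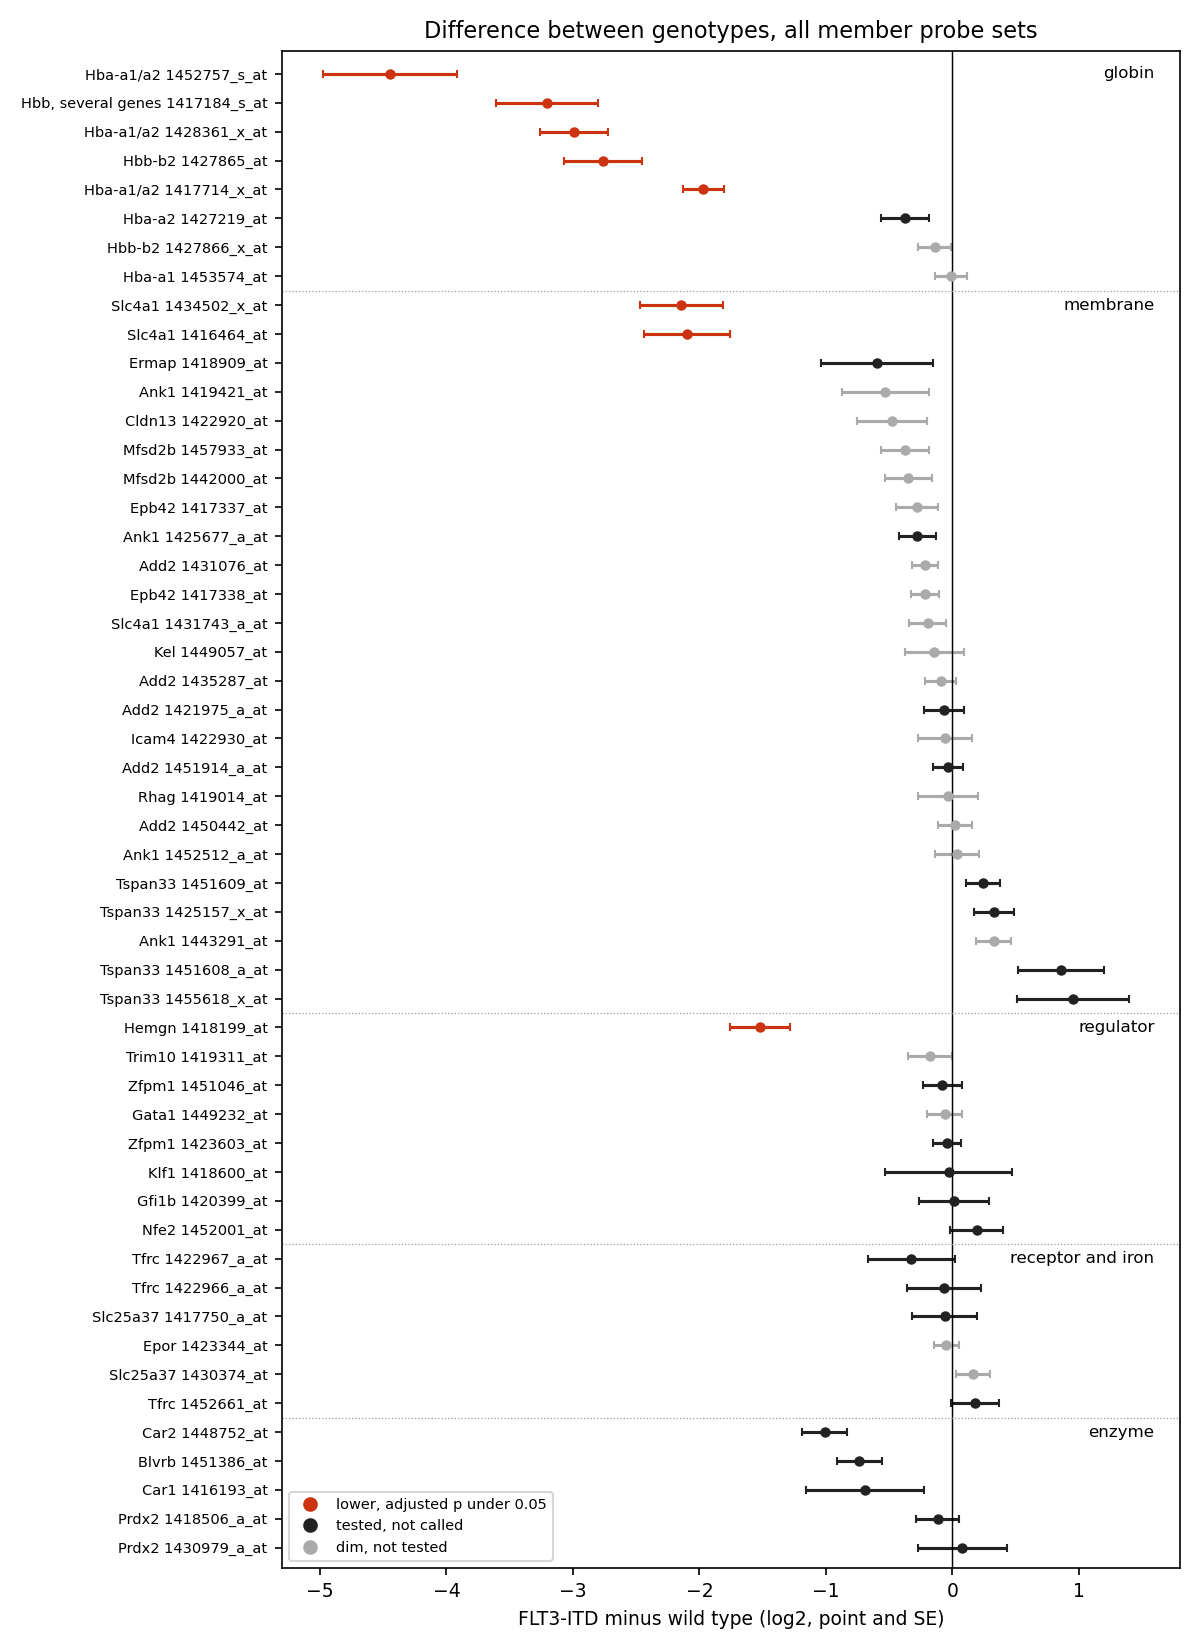
Difference between genotypes (x axis, FLT3-ITD minus wild type, log2, point with SE) for the 52 member probe sets that are not controls, grouped by role. Red marks the 8 called lower, black the tested probe sets without a call and grey the dim ones, whose SE comes from the fit without a filter. The red points lie between −4.44 and −1.52.

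**Figure D2:**
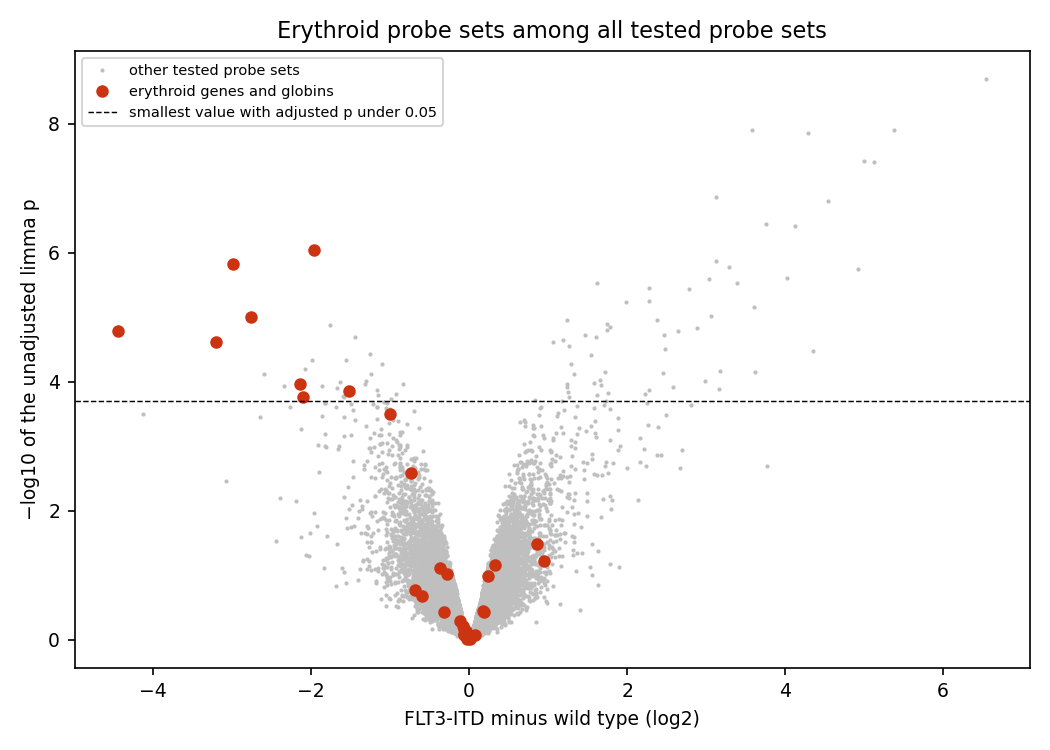
Difference (x axis, log2) against −log10 of the unadjusted limma p (y axis) for 22935 tested probe sets, with the 31 member probe sets in red. Of the red points, 8 lie above the dashed line of the weakest call, all on the negative side, and 1 of them has the most negative difference of all tested probe sets.

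A beta globin probe set was shared by Hbb-bt, Hbb-bs, Hbb-b2 and Hbb-b1 (1417184_s_at). It read 12.06, 11.91, 12.39 and 12.08 in wild type replicates 1, 2, 3 and 037, and 8.08, 8.48, 10.21 and 8.84 in FLT3-ITD. Every FLT3-ITD array lay below every wild type array, with a gap of 1.70, and FLT3-ITD replicate 3 was the highest of its genotype. The means were 12.11 ± 0.20 and 8.90 ± 0.93 (SD, n = 4 each). It fell by 3.21 (SE 0.40, 9.24-fold; limma adjusted p = 0.0134), and the call was lost on leaving out FLT3-ITD replicate 2 or either of wild type replicates 3 and 037, with adjusted p up to 0.0697. It was also lost with replicates 1 and 037 averaged within each genotype (limma adjusted p = 0.0588) and with FLT3-ITD replicates 1 and 037 both left out (limma adjusted p = 0.104).

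The probe set annotated to Hbb-b2 alone (1427865_at) read 9.99, 9.55, 10.15 and 9.91 in wild type, against 6.60, 6.65, 8.01 and 7.29 in FLT3-ITD, in the same order of replicates. The genotypes again did not overlap, and FLT3-ITD replicate 3 was again the highest of the 4. It fell by 2.76 (SE 0.31; limma adjusted p = 0.00872), and its call held on leaving out any single array, with adjusted p up to 0.0472, but not on leaving out FLT3-ITD replicates 1 and 037 together (limma adjusted p = 0.0769). The other Hbb-b2 probe set (1427866_x_at) was dim, between 4.18 and 4.75 on all arrays, with a difference of −0.14. Hbb-b2 is not among the genes given above for the adult beta chains of C57BL strains. Which transcripts its probe sets read in these mice was not tested.

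Alpha globin probe sets were annotated to both genes, to Hba-a2 alone or to Hba-a1 alone. The shared probe set 1452757_s_at read 9.69, 9.47, 10.16 and 9.59 in wild type, against 3.63, 5.04, 6.24 and 6.20 in FLT3-ITD. Wild type arrays lay close together, whereas FLT3-ITD arrays spread widely, with replicate 1 the lowest and replicates 1 and 2 below their array medians. It fell by 4.44 (SE 0.53, 21.8-fold; limma adjusted p = 0.0107), which ranked 1 among the falls of all tested probe sets. The call was lost without wild type replicate 3 alone (limma adjusted p = 0.0546).

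The shared probe set 1428361_x_at read 9.89, 9.72, 10.53 and 10.06 in wild type, against 6.62, 6.71, 7.28 and 7.63 in FLT3-ITD. All FLT3-ITD arrays were below all wild type arrays by at least 2.09. It fell by 2.99 (SE 0.27, 7.95-fold; limma adjusted p = 0.00263). The third shared probe set (1417714_x_at) read 7.08, 7.03, 7.49 and 7.09 in wild type, against 5.03, 5.18, 5.09 and 5.52 in FLT3-ITD, where all arrays were below the array median. It fell by 1.97 (SE 0.17; limma adjusted p = 0.00190). Both kept their call in each of the 20 settings of the analysis.

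Probe sets annotated to a single alpha globin gene read otherwise. The Hba-a2 probe set (1427219_at) read 11.56, 11.50, 11.40 and 11.18 in wild type, against 11.07, 11.18, 11.34 and 10.56 in FLT3-ITD. The genotypes overlapped, and the difference of −0.37 ± 0.19 (SE; 95% interval −0.80 to 0.05; limma adjusted p = 0.598) did not pass. The Hba-a1 probe set (1453574_at) was dim, with means of 4.99 and 4.98. The sources used here do not give the position of these probe sets on the transcripts, so why they read otherwise was not tested.

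**Figure D3:**
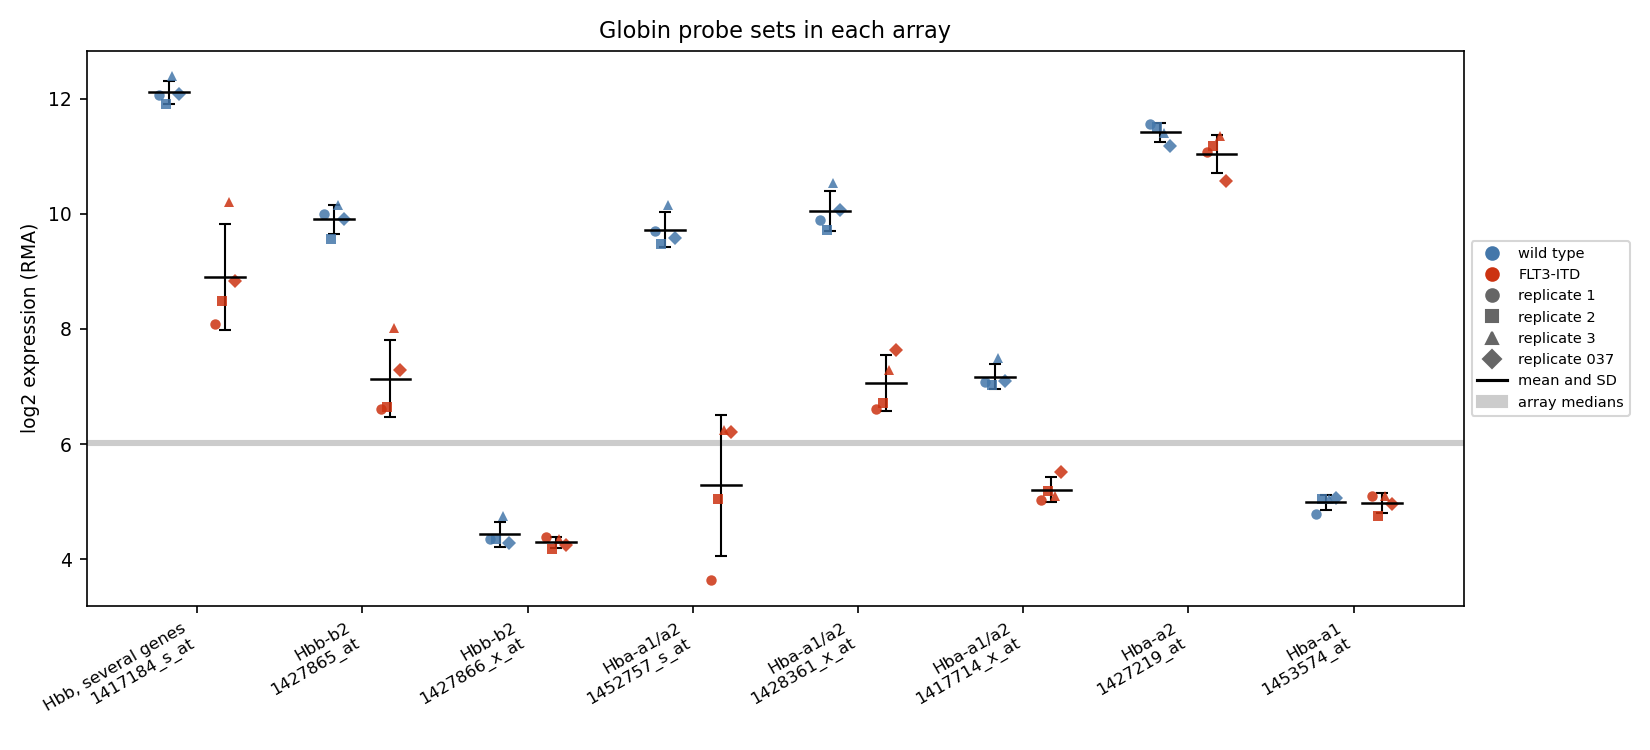
Log2 expression (y axis) of the 8 globin probe sets (x axis) in each array, wild type in blue and FLT3-ITD in red, marker shape by replicate, black lines for mean and SD (n = 4), grey band for the array medians. In 5 probe sets all FLT3-ITD points lie below all wild type points, and the Hba-a2 probe set overlaps near 11.

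The 5 called globin probe sets shared some extremes and not the whole order of arrays. FLT3-ITD replicate 1 was the lowest FLT3-ITD array in all 5, whereas the highest was replicate 3 in 3 of them and replicate 037 in the other 2. Within wild type, replicate 3 was the highest and replicate 2 the lowest in all 5. FLT3-ITD replicate 1 correlated with the other arrays at 0.948 to 0.959 over all probe sets, where each other array reached at least 0.973 with some array. The Gapdh controls, a measure of RNA quality, were furthest apart between their 3′ and 5′ ends in FLT3-ITD replicate 037, at 2.99 against 1.82 to 2.29. The part of either in the globin result was not tested. Without these 2 arrays, an alternative chosen after seeing the data, 4 member probe sets were lower. The embryonic beta globin gene Hbb-bh1 read 6.08 ± 0.23 and 6.15 ± 0.115 (wild type and FLT3-ITD, SD, n = 4 each; limma adjusted p = 0.931). Those of Hbb-y and Hba-x, and the remaining 2 of Hbb-bh1, were dim.

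Among the 11 membrane genes 5 had a tested probe set, of which Slc4a1 was lower and the others had no call. The remaining 6 were dim and not tested. Slc4a1 encodes band 3, the anion exchanger that anchors the membrane skeleton. Its probe set 1416464_at read 7.68, 7.37, 6.54 and 7.16 in wild type, against 5.08, 4.37, 5.89 and 5.02 in FLT3-ITD. The genotypes did not overlap, wild type replicate 3 being the lowest and FLT3-ITD replicate 3 the highest of their groups. It fell by 2.10 (SE 0.34, 4.29-fold; limma adjusted p = 0.0447).

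A second Slc4a1 probe set (1434502_x_at) read 7.17, 6.82, 6.20 and 7.05 in wild type, against 4.30, 4.36, 5.58 and 4.43 in FLT3-ITD. It fell by 2.14 (SE 0.33; limma adjusted p = 0.0368). All FLT3-ITD values of both probe sets lay below the array medians, so the falls end in dim values. Both calls were lost on leaving out any array except FLT3-ITD replicate 3, with adjusted p up to 0.162 and 0.133, and both were lost without the filter (limma adjusted p = 0.0754 and 0.0656). Averaging replicates 1 and 037 within each genotype also ended both (limma adjusted p = 0.142 and 0.130). The third Slc4a1 probe set (1431743_a_at) was dim at 5.29 in wild type, against 5.09 in FLT3-ITD.

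Of the genes of proteins that tie band 3 to the skeleton, Ank1 and Add2 had no call and Epb42 was not tested. Ank1, which encodes ankyrin, had 4 probe sets. The tested one read 6.80 ± 0.17 in wild type, against 6.52 ± 0.18 in FLT3-ITD (SD, n = 4 each), a difference of −0.28 ± 0.15 (SE; limma adjusted p = 0.629). The other 3 had differences of −0.53, 0.04 and 0.33. Add2, which encodes beta adducin, differed by −0.07 and −0.03 in its 2 tested probe sets (limma adjusted p = 0.935 and 0.959). Epb42, which encodes protein 4.2, was dim in both probe sets. In 1 of them (1417338_at) FLT3-ITD lay below wild type by as little as 0.04, at 5.75 to 5.84 against 5.89 to 6.24.

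Ermap, an erythroblast membrane protein that carries a blood group, spread widely. It read 5.76, 6.87, 8.03 and 6.84 in wild type, against 6.03, 6.77, 6.57 and 5.74 in FLT3-ITD. The genotypes overlapped, wild type replicate 3 being the highest of all, and the difference was −0.60 ± 0.44 (SE; limma adjusted p = 0.747). It was −0.21 without wild type replicate 3 and −0.97 without wild type replicate 1. The blood group genes Rhag, Kel and Icam4 were dim, with differences of −0.03, −0.14 and −0.05. Cldn13, a claudin of mouse erythroid cells, and Mfsd2b, the exporter of sphingosine-1-phosphate from red cells, were also dim and differed by −0.48 for Cldn13 and by −0.35 and −0.37 for Mfsd2b.

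Tspan33, a tetraspanin of erythroid progenitors, pointed the other way without a call. Its probe set 1451608_a_at read 7.62, 7.50, 8.06 and 7.91 in wild type, against 8.48, 9.30, 9.11 and 7.64 in FLT3-ITD. Of the FLT3-ITD arrays, 3 were above all wild type arrays and replicate 037 was within their range. The difference was 0.86 ± 0.34 (SE; limma adjusted p = 0.498). The other 3 probe sets of Tspan33 differed by 0.24, 0.33 and 0.95, none past the test (limma adjusted p = 0.640, 0.580 and 0.564).

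Hemgn was the 1 called member among the regulators. It encodes hemogen, a nuclear protein of blood progenitors and erythroid cells. It read 9.02, 9.35, 9.25 and 9.04 in wild type, against 7.05, 7.83, 7.49 and 8.21 in FLT3-ITD. The wild type arrays lay close together, and every FLT3-ITD array lay at least 0.81 lower. It fell by 1.52 (SE 0.24, 2.87-fold; limma adjusted p = 0.0403). The call was lost without any 1 of the 4 wild type arrays, FLT3-ITD replicate 2 or FLT3-ITD replicate 3, with adjusted p up to 0.155, and without the filter (limma adjusted p = 0.0678). The highest Hemgn value of the FLT3-ITD arrays belonged to replicate 037, the one with the widest Gapdh difference.

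**Figure D4:**
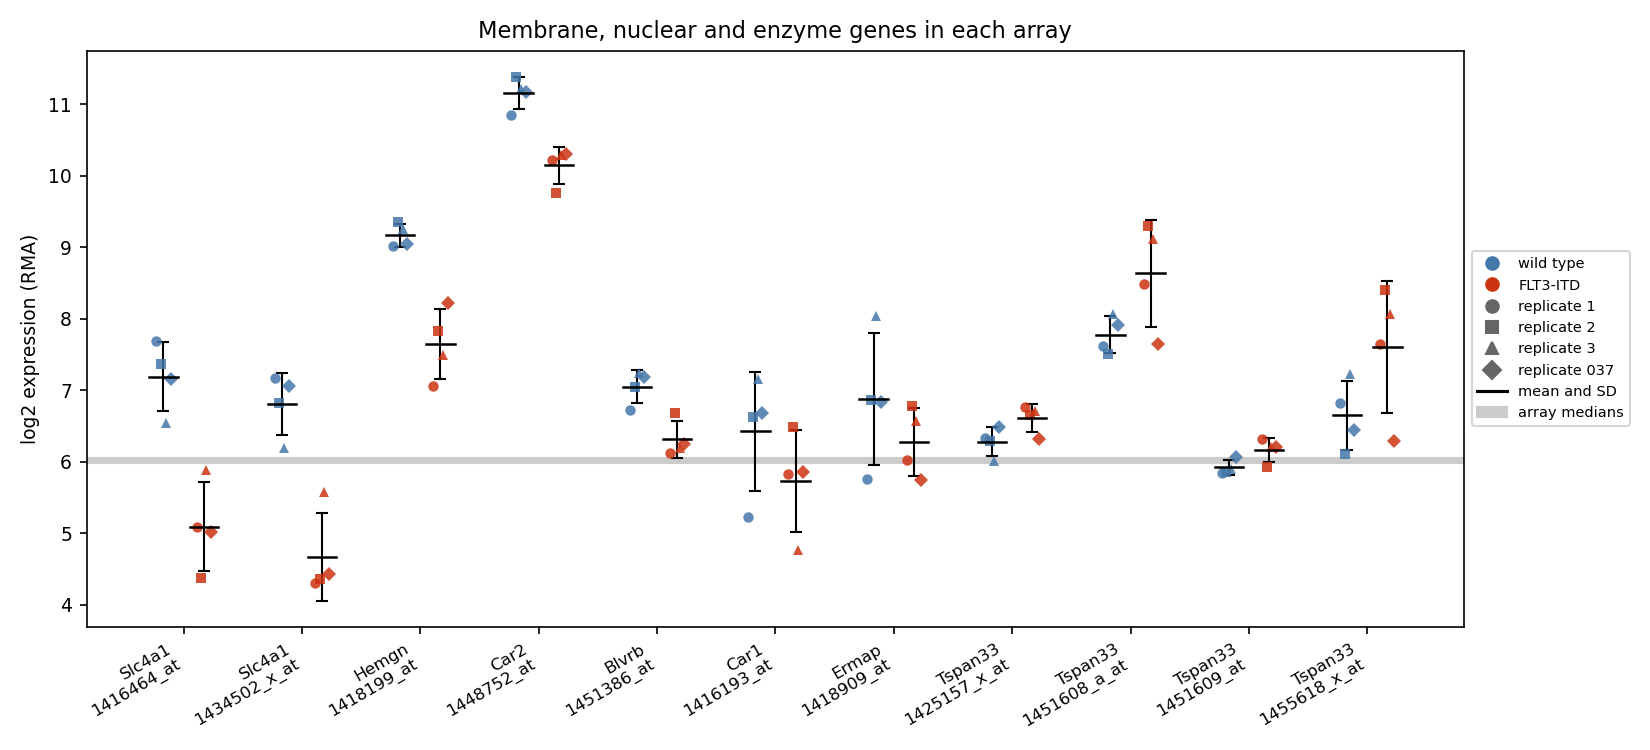
Log2 expression (y axis) of membrane, nuclear and enzyme probe sets (x axis) in each array, wild type in blue and FLT3-ITD in red, marker shape by replicate, black lines for mean and SD (n = 4), grey band for the array medians. The genotypes are apart for both Slc4a1 probe sets, Hemgn, Car2 and Blvrb, and overlap for Car1, Ermap and Tspan33.

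The transcription factors showed no called difference, with intervals of different widths. Klf1, the activator of beta globin, read 5.10, 5.54, 6.30 and 6.64 in wild type, against 4.97, 7.16, 6.05 and 5.29 in FLT3-ITD. Its values scattered around the array median in both genotypes, and the difference of −0.03 had a 95% interval from −1.17 to 1.11 (limma adjusted p = 0.992), which does not exclude a change of 2-fold in either direction. Its sign turned under some alternatives.

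Gfi1b, a repressor required for red cell and platelet formation, read 6.78, 7.71, 7.56 and 8.09 in wild type, against 7.50, 7.25, 7.49 and 7.95 in FLT3-ITD. All FLT3-ITD values lay inside the wild type range, and the difference was 0.01 (95% interval −0.61 to 0.64; limma adjusted p = 0.992), also with a sign that turned under some alternatives. Zfpm1, which encodes FOG1, differed by −0.04 (95% interval −0.29 to 0.21) and −0.08 (−0.43 to 0.27) in its 2 probe sets. Nfe2, a subunit of a globin enhancer-binding factor, read 8.94 ± 0.31 in wild type, against 9.14 ± 0.31 in FLT3-ITD (SD, n = 4 each; 95% interval of the difference −0.28 to 0.67; limma adjusted p = 0.833). Gata1 itself was dim on all 8 arrays, at 4.26 to 4.85 in wild type, against 4.47 to 4.67 in FLT3-ITD, so it did not pass the filter. In the fit without a filter it differed by −0.06 (95% interval −0.38 to 0.26; limma adjusted p = 0.944). Trim10, linked to terminal red cell maturation, was dim as well, with a difference of −0.18.

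Of the receptors and iron genes, none was called. Epor, the erythropoietin receptor, was dim, at 5.19 to 5.31 in wild type, against 5.09 to 5.34 in FLT3-ITD. Tfrc, the transferrin receptor that takes up iron, was well above the array median. Its probe set 1452661_at read 9.78, 9.11, 8.92 and 9.26 in wild type, against 9.38, 9.40, 9.49 and 9.52 in FLT3-ITD. The FLT3-ITD arrays lay close together inside the wild type range, with a difference of 0.18 (95% interval −0.25 to 0.61; limma adjusted p = 0.827). The other tested probe sets of Tfrc differed by −0.06 and −0.32. Slc25a37, which encodes mitoferrin, the importer of iron into mitochondria, differed by −0.06 (95% interval −0.64 to 0.52; limma adjusted p = 0.967) in its tested probe set.

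The array also carries control probe sets for the 3′ end, the middle and the 5′ end of Tfrc, which were described and not tested. The 3′ minus 5′ difference was −1.35 to −0.74 in wild type. It was −1.21, −1.17 and −1.15 in FLT3-ITD replicates 1, 2 and 3, and −0.29 in FLT3-ITD replicate 037. That array was again the one with the highest value, as for Gapdh. Its middle probe set was lowest in FLT3-ITD replicate 1, at 6.34 against 6.95 to 7.65 on the other arrays.

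**Figure D5:**
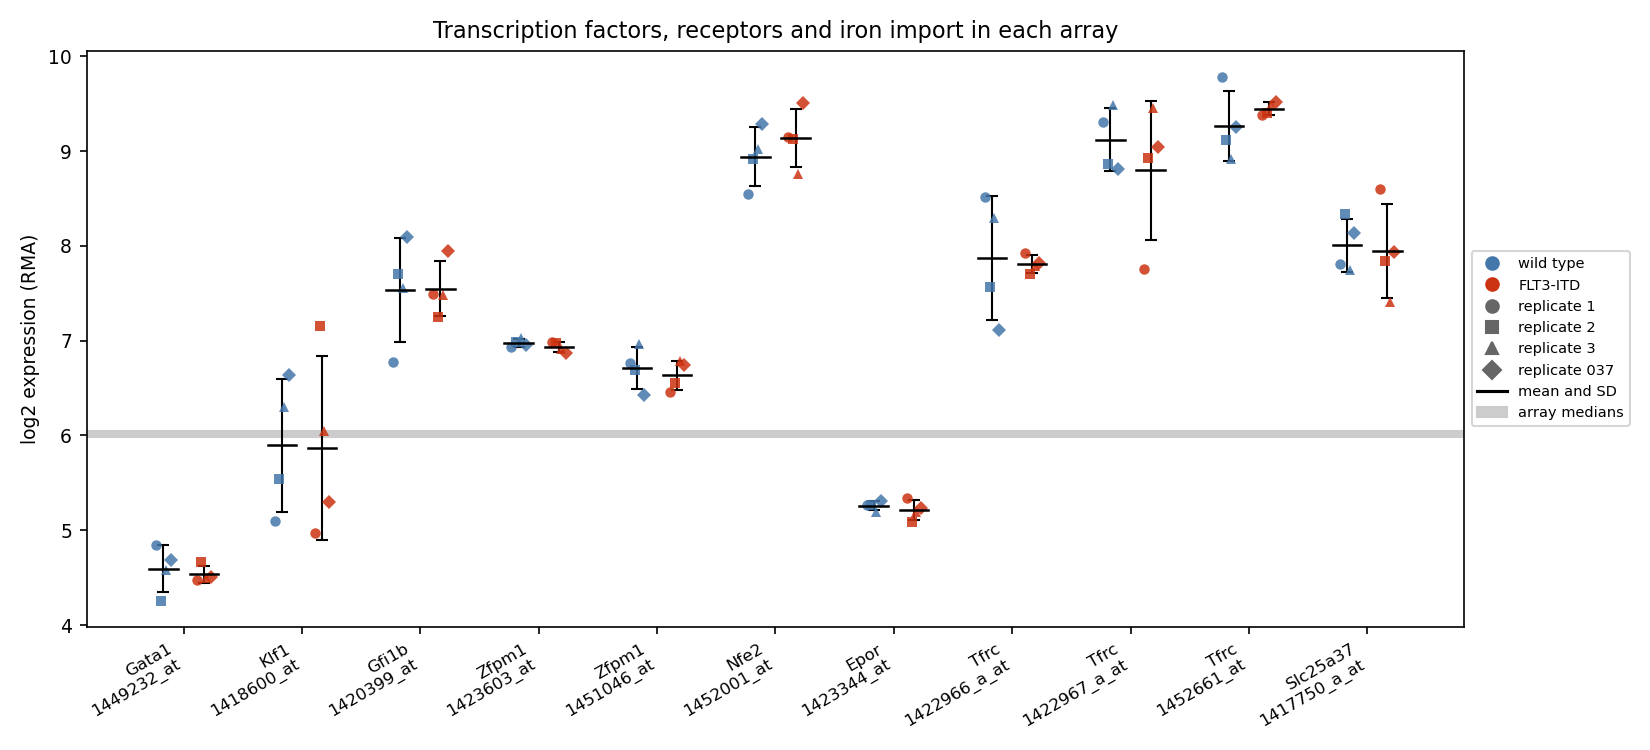
Log2 expression (y axis) of transcription factor, receptor and iron import probe sets (x axis) in each array, wild type in blue and FLT3-ITD in red, marker shape by replicate, black lines for mean and SD (n = 4), grey band for the array medians. The genotypes overlap in all 11 probe sets, and Gata1 and Epor lie below the array medians on all arrays.

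Of the enzymes, Car2 and Blvrb were apart between genotypes without passing. Car2, a cytosolic carbonic anhydrase of red cells and other cells, read 10.85, 11.38, 11.22 and 11.17 in wild type, against 10.23, 9.76, 10.29 and 10.31 in FLT3-ITD. Every FLT3-ITD array lay at least 0.54 below wild type. Car2 differed by −1.01 ± 0.18 (SE; limma adjusted p = 0.0614). It passed when 1 probe set was kept per gene among those annotated to a single gene. It also passed with an intensity trend or with array weights. Over the alternatives its limma adjusted p ran from 0.0279 to 0.232. Blvrb, which reduces biliverdin and flavins in red cells, read 6.73, 7.04, 7.24 and 7.18 in wild type, against 6.12, 6.69, 6.19 and 6.24 in FLT3-ITD. The genotypes were 0.04 apart, and the difference was −0.74 ± 0.18 (SE; limma adjusted p = 0.181).

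Car1, the most abundant carbonic anhydrase of red cells, read 5.22, 6.63, 7.16 and 6.68 in wild type, against 5.83, 6.48, 4.77 and 5.85 in FLT3-ITD. The genotypes overlapped because wild type replicate 1 was low, and the difference was −0.69 ± 0.46 (SE; limma adjusted p = 0.717). Leaving out wild type replicate 1 gave −1.09, whereas leaving out replicate 3 gave −0.44 for the wild type array and −0.37 for the FLT3-ITD array. Prdx2, an abundant red cell peroxidase that most cells also express, differed by −0.12 and 0.08 in its 2 probe sets (limma adjusted p = 0.882 and 0.969).

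Separation of the genotypes was counted apart from the test. Of the 31 tested member probe sets, 10 had every FLT3-ITD array below every wild type array, beside 2.94% of all tested probe sets, and 0 had every one above, beside 3.21%. The 10 were the 8 called ones with Car2 and Blvrb. Over all 52 the counts were 11 and 0, beside 2.30% and 2.88% of all probe sets, Epb42 being the one added. By role, among all probe sets that are not controls, 5 of 8 globin, 3 of 25 membrane, 1 of 8 regulator, 0 of 6 receptor and iron and 2 of 5 enzyme probe sets were apart in this way.

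Other genes of the erythroid program were read from 6 lists that leave out the members. They held 86 genes, of which 74 had a probe set and 61 a tested one. Of 133 tested probe sets, 1 was lower, that of Hmox1, and 0 were higher. At an unadjusted p under 0.05 in limma 16 were lower and 4 higher, beside 4.55% and 4.70% of all tested probe sets. The median difference was −0.02.

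Hmox1, which encodes the heme-degrading enzyme heme oxygenase 1, was the called member of the heme and iron list, 1 of 27 tested probe sets. It read 6.86 ± 0.22 in wild type, against 5.70 ± 0.28 in FLT3-ITD (SD, n = 4 each). It fell by 1.17 (SE 0.18; limma adjusted p = 0.0403) to values below all array medians. Its probe set passed the filter through the wild type arrays only, and without the filter it was not called (limma adjusted p = 0.0593). The call was also lost without any 1 array other than FLT3-ITD replicate 1. Macrophages that recycle red cells also express it. Of the 49 dim probe sets of the lists, 4 had every FLT3-ITD array below every wild type array, beside 2.30% of all probe sets, dim or not. In 2 every one was above, beside 2.88%. These 6 were named after their values were seen, and none passed in the fit without a filter (lowest limma adjusted p = 0.0683). The 4 were those of the water channel gene Aqp1 (−1.01), Sox6 (−0.98), Rhd (−0.36) and Alas2, the erythroid enzyme that starts heme synthesis (−0.78). The 2 were those of Cd36 (1.79), which encodes a fatty acid receptor also made by monocytes and platelets, and Xk (0.28).

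In the list of transcription and chromatin genes 45 probe sets of 17 genes were tested, with 0 calls. At an unadjusted limma p under 0.05, 12 were lower and 2 higher, beside 4.55% and 4.70% of all tested probe sets. In 7 every FLT3-ITD array lay below every wild type array and in 4 above, beside 2.94% and 3.21%. Only the 2 genes with the smallest p are named. Cited2, a co-activator that supports blood progenitors, differed by 0.91 ± 0.16 (SE; limma adjusted p = 0.0534), and a Foxo3 probe set shared with a predicted gene by −0.50 ± 0.14 (SE; limma adjusted p = 0.248). The membrane and skeleton list had 19 tested probe sets and 0 calls, with 0 lower and 1 higher at an unadjusted limma p under 0.05. Its smallest p belonged to the glucose transporter gene Slc2a1 at 0.42 ± 0.17 and to Bsg at 0.44 ± 0.21 (SE; limma adjusted p = 0.511 and 0.575).

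The list of erythropoietin signalling and survival had 16 tested probe sets and 0 calls, with 2 lower and 1 higher at an unadjusted limma p under 0.05. Cish, a feedback inhibitor of cytokine receptors, read 1.19 ± 0.29 higher (SE; limma adjusted p = 0.190), and a Kit probe set −0.47 ± 0.18 (SE; limma adjusted p = 0.470). The list of terminal maturation and red cell enzymes had 25 tested probe sets, 0 calls and 0 at an unadjusted limma p under 0.05. Its smallest p belonged to Bpgm, which makes the regulator of oxygen release, at −0.32 ± 0.15, and to Pklr, red cell pyruvate kinase, at −0.39 ± 0.22 (SE; limma adjusted p = 0.556 and 0.641).

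Markers of other cells were read on the same arrays. Mature neutrophil markers had 6 tested probe sets, all with negative differences and a median of −1.59, none called, and 3 lower at an unadjusted limma p under 0.05. Averaged over all 9 probe sets of that list, arrays read 6.55 to 7.85 in wild type, against 5.38 to 7.31 in FLT3-ITD. These differences had the sign of those of the globins but with overlap between genotypes, and FLT3-ITD replicate 1 was the lowest array for both. Their part in the globin result was not tested. Megakaryocyte and platelet markers had 5 tested probe sets with 0 calls and 0 at an unadjusted limma p under 0.05. These covered 3 of the 12 genes with a probe set, and Ppbp, Gp5 and Gp6 were among the dim ones. Over all 16 probe sets, most of them dim, arrays averaged 5.04 to 5.39 in wild type, against 5.04 to 5.21 in FLT3-ITD. Mast cell and basophil markers had 3 tested probe sets and 0 calls, with 0 at an unadjusted limma p under 0.05. Dendritic cell markers had 6 of 9 tested probe sets higher, all of the class II genes H2-Aa and H2-Ab1, with a median difference of 2.88. Over all 15 probe sets of the dendritic list, these class II ones included, arrays averaged 5.54 to 5.72 in wild type, against 7.01 to 8.11 in FLT3-ITD, without overlap. Monocyte and macrophage markers had 3 of 9 tested probe sets higher, with 4 higher and 1 lower at an unadjusted limma p under 0.05. Over all 19 probe sets, dim ones included, arrays averaged 5.45 to 5.97 in wild type, against 5.79 to 6.25 in FLT3-ITD, with overlap. The part of these shifts in the globin result was not tested.

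Among the genes used to sort the cells, Cd48 rose by 1.06 (SE 0.13; limma adjusted p = 0.0134), whereas Slamf1, which encodes CD150, was dim in all 3 probe sets. Flt3, which is not among the sorting markers given above, read 10.54 ± 0.11 in wild type, against 9.37 ± 0.39 in FLT3-ITD (SD, n = 4 each; limma adjusted p = 0.0534). A duplication within the gene need not alter what its probe set reads, so Flt3 does not check the labels. B cell and T and NK cell markers had 0 calls among 5 and 3 tested probe sets, and 0 at an unadjusted limma p under 0.05.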

How the data were processed

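RNA was isolated in Trizol and, after amplification by the WT-Ovation Pico system of NuGEN, labelled with biotin, per the labels' protocols. The deposited values are log2 expression per probe set, made by the authors with RMA, per the submitters' processing notes. RMA corrects background, normalizes arrays and summarises probes, and an RMA difference understates large changes at low signal. No source used here gives the RMA version. Medians of the arrays were 5.98 to 6.05. Scanner signal was not analysed here, and the number of arrays limits the precision.

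The 64 control probe sets were left out of the fit. FLT3-ITD was compared with wild type by limma 3.58.1 in R 4.3.3, with no covariate. Probe sets ending in x_at or s_at can read related transcripts. Dim members are given by value, with SE and interval from the fit without a filter. Promoters were aligned with Biopython 1.88 and figures drawn with matplotlib 3.10.9. The procedure was run on data simulated with known changes and independent arrays. That run does not bear on arrays that may repeat each other. Members, lists, tests and the rule for named genes (all members, list genes past the test or else the 2 with the smallest p) were chosen with earlier results of these data known.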

Additional observations from a re-analysis of the deposited data

Results flagged for a closer look

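In 88 groups of 4 values examined, 6 had an array far from the other 3, where chance gives about 1 in 20. For Slc4a1 (1434502_x_at), FLT3-ITD replicate 3 was the highest at 5.58, with the others at 4.30 to 4.43. For the shared alpha globin probe set 1417714_x_at, wild type replicate 3 was the highest at 7.49, with the others at 7.03 to 7.09. FLT3-ITD replicate 2 was the lowest of its genotype for Car2 at 9.76, with the others at 10.23 to 10.31, and for Kit at 8.77, with the others at 9.23 to 9.29. For Prdx2 (1430979_a_at), FLT3-ITD replicate 1 was the lowest at 8.81, with the others at 10.04 to 10.20. The 3′ minus 5′ difference of the Tfrc control probe sets was the highest in FLT3-ITD replicate 037 at −0.29, with the others at −1.21 to −1.15.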

How the results depend on the processing

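Of the 8 called member probe sets, the alpha globin probe sets 1428361_x_at and 1417714_x_at passed under every alternative run. The 8 were negative under each alternative that gave a value, and 1 Slc4a1 probe set (1434502_x_at) had none under the filter on the mean or with 1 probe set per gene. That last alternative kept 1 probe set per gene among those annotated to a single gene. It kept every tested probe set shared by several genes, and so all shared globin ones. The count of 8 was 5 without the filter, 5 with replicates 1 and 037 averaged and 4 without both FLT3-ITD replicates 1 and 037, and 3 to 7 on leaving out single arrays. With the replicate number as a block it was 5, both Slc4a1 probe sets (limma adjusted p = 0.213 and 0.204) and Hemgn (0.117) not being called. Over all tested probe sets, 30 lower became 13 without the filter, 55 with an intensity trend, 63 with array weights, 9 with the replicate block, 8 without both arrays and 3 to 23 on leaving out single arrays. The 61 higher became 107 with array weights, 26 with the replicate block, 37 without both arrays and 35 to 59 on leaving out single arrays. In the other erythroid lists, 1 lower became 0 without the filter, with the replicate block and without both arrays, and 0 to 1 on leaving out single arrays. There, 0 higher became 1 with the trend, with 1 probe set per gene or without both arrays, 2 with array weights, and 0 to 1 on leaving out single arrays. In leaving out or averaging arrays the tested probe sets were held as in the fit of all 8. Deviations of same-numbered arrays correlated at 0.02, 0.03, 0.07 and 0.09, against −0.07 to 0.04 for arrays of different number. These values do not settle whether the numbers pair the arrays, and the main fit did not pair them. Of the 4 wild type arrays 3 correlated best with the FLT3-ITD array of their own number, and likewise 3 of the 4 FLT3-ITD arrays. The fit with the block has fewer degrees of freedom.

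Signs turned only where no difference was called. With array weights, with replicates 1 and 037 averaged and without both FLT3-ITD arrays, Klf1 read 0.33, 0.21 and 0.71, Gfi1b −0.058, −0.0773 and −0.16 and Add2 (1421975_a_at) 0.0295, 0.0347 and 0.0427. Without both arrays Tfrc (1422967_a_at) read 0.0727. On leaving out single arrays the ranges were −0.46 to 0.27 for Klf1, −0.24 to 0.20 for Gfi1b, −0.16 to 0.0133 and −0.0653 to 0.0023 for Add2, −0.32 to 0.15 and −0.54 to 0.0251 for Tfrc, −0.28 to 0.12 for Slc25a37, −0.10 to 0.41 for Prdx2 and −0.17 to 0.0036 for Zfpm1. Apart from the filter, which changes the number of probe sets tested, and fewer arrays, the cause of these shifts was not tested. Dim signal limits the reading of Gata1, Epor and the blood group genes.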
